A study of Mus musculus with 27 samples.

Results

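Ibrutinib, a covalent inhibitor of the kinase Btk, was compared with vehicle in mouse splenic B cells that received either LPS or IL-4+anti-CD40 as a stimulus. The comparison took 4 of the 27 RNA-seq libraries of the series, and 9659 of the 54532 annotated genes, chosen because they had a mean of at least 100 counts over the 7 libraries of the second experiment. All cells came from the spleen of C57BL6 wild-type mice, were purified by removing other cells, and were cultured for 3 h. In the second experiment, 1 library was made from unstimulated cells, 1 from cells with each stimulus and vehicle (DMSO), 1 from each stimulus with 1 µM ibrutinib and 1 from each stimulus with 1 µM disulfiram (DSF). The first experiment held 5 groups of 4 libraries, namely unstimulated cells and each stimulus with vehicle or with DSF. The age and sex of the mice, the number of mice per library and the time between inhibitor and stimulus in the RNA-seq cultures were not given in the sources used here. The 2 stimuli were the only replication of the ibrutinib comparison, so genes that moved the same way under both are described first. The 2 ratios share no library.

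Btk is a Tec family kinase that carries the signal of the B cell receptor to phospholipase C, calcium, NF-kB and MAP kinases, and ibrutinib blocks it by binding a cysteine beside its ATP site. LPS acts through Toll-like receptor 4 and drives B cells without T cell help, while IL-4 and CD40 ligation stand in for T cell help. Neither stimulus crosslinks the B cell receptor, although Btk also takes part in Toll-like receptor signalling and resting B cells receive a low-level signal through their receptor.

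Total counts were 17509704 under LPS and vehicle, 23074381 under LPS and ibrutinib, 17602312 under IL-4+anti-CD40 and vehicle, and 24619776 under IL-4+anti-CD40 and ibrutinib. Both ibrutinib libraries were thus deeper than both vehicle libraries, and they also held more mitochondrially encoded counts, 1.85% against 1.63% under LPS and 2.08% against 1.39% under IL-4+anti-CD40. With 1 library a condition, the inhibitor cannot be told apart from these features of the libraries. The summed level of 6 B cell markers was between 13350 and 16340 CPM (counts scaled to the size of the library) in the 4 libraries. The summed levels of 7 T cell markers (4.66 to 7.22 CPM), 6 neutrophil markers (0.554 to 1.75 CPM) and 5 NK cell markers (2.22 to 3.29 CPM) were low, and the neutrophil genes Elane, Ly6g and Mpo were at or near 0, Elane at 0 counts in all 4 libraries. The 6 myeloid markers were above these, at 18.4 and 22.0 CPM under LPS and at 18.2 and 18.5 CPM under IL-4+anti-CD40, without and with ibrutinib. Erythroid markers summed to 54.3 CPM under LPS and ibrutinib against 26.0 to 30.5 CPM in the other 3 libraries. The part of myeloid and erythroid cells in any result was not tested. In bulk libraries, fewer cells of a type and less RNA per cell cannot be told apart.

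With ibrutinib, the protease gene Plau, the immediate early genes Egr2, Egr3 and Nr4a3, and the receptor genes S1pr3, Ccr6 and Cr2 were lower under both stimuli, and the chemokine receptor gene Cxcr4, the B cell receptor chain gene Cd79b, the survival kinase gene Pim2 and the quiescence gene Klf3 were higher. The largest of these, Plau, had log2 ratios of -2.65 under LPS and -2.83 under IL-4+anti-CD40. Levels are CPM after TMM normalization, which assumes that most genes do not change, and ratios are log2 of ibrutinib over vehicle after adding a prior count of 2. A gene was counted as lower or higher at 1.5-fold (0.585 on the log2 scale), with no test. With LPS, 243 genes (2.52%) were lower with ibrutinib and 331 (3.43%) were higher. With IL-4+anti-CD40, 207 (2.14%) were lower and 330 (3.42%) were higher. Under both stimuli 116 genes (1.2%) were lower and 150 (1.55%) were higher, and 6 (0.0621%) passed the fold in opposite directions. The 116 shared genes were 47.7% of the genes lower under LPS and 56.0% of those lower under IL-4+anti-CD40, and the 150 shared genes were 45.3% and 45.5% of the genes higher. Of the 243 genes lower under LPS, 222 were also below vehicle under IL-4+anti-CD40 at any size, as were 195 of 207 in the other order. Of the genes higher under 1 stimulus, 292 of 331 and 308 of 330 were above vehicle under the other. Of all 9659 genes, 33.6% were below vehicle and 42.4% were above it under both stimuli. At 2-fold, 23 genes were lower and 16 were higher under both. Across the 9659 genes the 2 ratios had a Pearson r of 0.67 and a Spearman rho of 0.67, which describes these 4 libraries, since genes are not independent replicates. The medians of all genes were 0.04 under LPS and 0.01 under IL-4+anti-CD40.

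**Figure D1:**
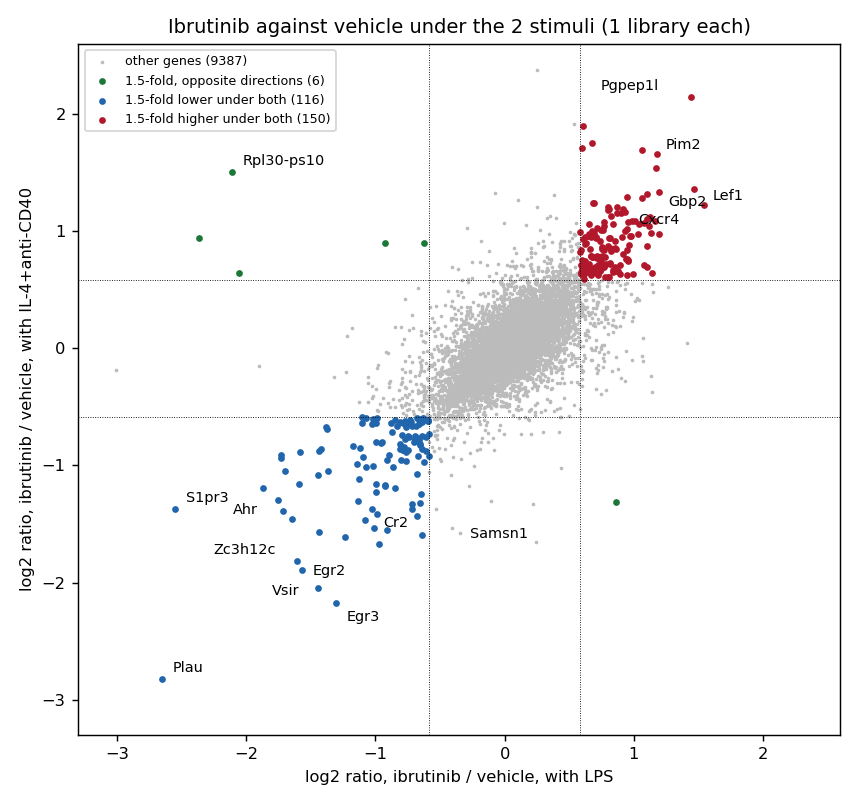
Log2 ratio of ibrutinib over vehicle for 9659 genes under LPS (x axis) and under IL-4+anti-CD40 (y axis), 1 library a condition. Dotted lines mark 1.5-fold, and colours mark the 116 genes lower and the 150 genes higher under both stimuli, with Plau farthest to the lower left and 6 genes in the opposite quadrants.

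In an edgeR quasi-likelihood test with the stimulus as a block, where the spread is how unlike the ratios were under the 2 stimuli, 1278 genes (13.2%) fell and 1161 (12%) rose with ibrutinib at an adjusted p under 0.05. Among them were 112 of the 116 genes lower and 149 of the 150 genes higher at 1.5-fold, which were chosen on the same libraries, so that these counts are no independent support. "Fell" and "rose" refer to this test below. Its 4 libraries leave 1 residual degree of freedom, and a fit over all 7 libraries of the experiment with additive terms for stimulus and inhibitor called 0 genes in each direction, with 934 and 789 at an unadjusted p under 0.05. When each lone library was instead assumed to vary like the replicates of the first experiment, edgeR called 217 genes (2.25%) lower and 181 (1.87%) higher under both stimuli. These held 69 of the 116 and 80 of the 150 genes. Taken by stimulus, that test called 335 genes (3.47%) lower and 313 (3.24%) higher with ibrutinib under LPS, and 354 (3.66%) and 344 (3.56%) under IL-4+anti-CD40.

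The first experiment of the series gave 4 other vehicle libraries for each stimulus. Normalized within each experiment, the vehicle libraries of the second experiment lay below all 4 of these under both stimuli for 19% of all genes and above all 4 for 18.5%, so levels set across the experiments carry that difference.

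Plau, which encodes the urokinase plasminogen activator, had the largest decrease that both stimuli shared. It was at 12.4 CPM under LPS and vehicle, 1.88 under LPS and ibrutinib, 12.7 under IL-4+anti-CD40 and vehicle, and 1.70 under IL-4+anti-CD40 and ibrutinib. Both ibrutinib libraries were below the 10.7 CPM of unstimulated cells, and the vehicle libraries were close to it. The log2 ratios were -2.65 and -2.83, with 95% counting intervals of -3.22 to -2.24 and -3.40 to -2.42, and Plau fell by edgeR (-2.83 ± 0.18 SE, adjusted p = 0.000637). Counting intervals here are exact binomial intervals and cover counting error only. In the first experiment Plau ranged from 6.74 to 7.85 CPM over 4 libraries under LPS, from 13.6 to 33.4 under IL-4+anti-CD40, and from 0.832 to 11.5 without stimulus.

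With Plau, the 12 largest shared decreases among genes whose symbol does not start with Gm or AC were those of the genes in this paragraph and of S1pr3, Egr2 and Egr3. Zc3h12c, a member of the Regnase family of RNA-binding nucleases, was at 66.0 and 98.8 CPM in the LPS and IL-4+anti-CD40 vehicle libraries and at 21.5 and 28.0 CPM with ibrutinib. It fell by 1.75 ± 0.08 (SE) on the log2 scale (edgeR, adjusted p = 0.00045). Hivep3, a zinc finger protein of the Schnurri family, was at 48.2 and 34.5 CPM with vehicle and 15.3 and 12.5 CPM with ibrutinib. The aryl hydrocarbon receptor gene Ahr was at 58.4 and 156 CPM with vehicle and at 17.2 and 63.6 CPM with ibrutinib. Its ibrutinib level under LPS was below the 44.6 CPM of unstimulated cells, and that under IL-4+anti-CD40 was above it. Gfi1, a transcriptional repressor, was at 12.6 and 15.9 CPM with vehicle and at 5.29 and 5.14 CPM with ibrutinib. Vsir, which encodes the immune checkpoint protein VISTA, was at 63.8 and 15.7 CPM with vehicle and at 23.4 and 3.72 CPM with ibrutinib. Its vehicle level under LPS was above that under IL-4+anti-CD40, yet its log2 ratios were -1.44 and -2.05. Lrrc32, which encodes the TGF-beta docking receptor GARP, had ratios of -1.87 and -1.20, Lmna, which encodes lamin A/C, -1.59 and -1.16, and Bspry -1.72 and -1.39. All of these fell by edgeR, with adjusted p between 0.00045 and 0.00283.

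Genes of the AP-1, EGR and NR4A immediate early group are switched on within minutes by receptor signals, and Egr2, Egr3 and the Nr4a genes are standard readouts of antigen receptor signalling. Of the 22 measured members, 16 fell and 1 rose by edgeR, against 13.2% and 12% of all genes. At 1.5-fold under both stimuli 7 were lower and 1 higher, against 1.2% and 1.55% of all genes. The median log2 ratio of the group was -0.34 under LPS and -0.59 under IL-4+anti-CD40, against 0.04 and 0.01 over all genes. The list was chosen with earlier results of these data known.

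Egr2 was at 14.9 CPM under LPS and vehicle and 4.94 under LPS and ibrutinib, and at 75.1 under IL-4+anti-CD40 and vehicle and 20.2 under IL-4+anti-CD40 and ibrutinib. Of these, only the library under IL-4+anti-CD40 and vehicle was above the 25.4 CPM of unstimulated cells. Egr2 fell by 1.81 ± 0.10 (SE) on the log2 scale (edgeR, adjusted p = 0.000553). Egr3 was at 60.5 and 24.5 CPM under LPS and at 46.3 and 10.2 CPM under IL-4+anti-CD40, without and with ibrutinib, and at 78.1 CPM in unstimulated cells. It fell by 1.73 ± 0.18 (SE) on the log2 scale (edgeR, adjusted p = 0.00195). In the first experiment both stimuli lowered Egr3, which was at 122 to 147 CPM in 4 unstimulated libraries, 72.4 to 79.7 under LPS and 57.9 to 62.0 under IL-4+anti-CD40, so that ibrutinib took it further in the direction of the stimuli. Egr2 was instead raised under IL-4+anti-CD40 in that experiment, at 93.1 to 128 CPM against 8.71 to 36.1 CPM in unstimulated cells.

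Nr4a3, a nuclear receptor, was at 134 and 66.2 CPM under LPS and at 87.8 and 30.2 CPM under IL-4+anti-CD40, without and with ibrutinib. Its level under LPS and ibrutinib was near the 63.9 CPM of unstimulated cells, and that under IL-4+anti-CD40 and ibrutinib was lower. Nr4a1, which encodes Nur77, had log2 ratios of -0.41 under LPS and -1.53 under IL-4+anti-CD40, and the difference between the stimuli had an adjusted p of 0.314 by edgeR with the spread of the first experiment. Nr4a2 had ratios of -0.99 and -1.16, on no more than 89 counts in any of the 4 libraries. Among the AP-1 genes, Fosl2 (-1.14 and -0.99) and Fosl1 (-0.72 and -1.37) fell, and Fos had ratios of -0.38 and -0.54. Jun (-0.24 and 0.18), Junb (0.14 and -0.20) and Jund (0.03 and -0.04) had ratios of unlike sign under the 2 stimuli. Btg2, an antiproliferative gene, was the member that rose, from 178 to 278 CPM under LPS and from 94.9 to 149 CPM under IL-4+anti-CD40 (0.62 ± 0.04 SE, edgeR adjusted p = 0.000805). It was at 322 CPM in unstimulated cells, above all 4 stimulated libraries.

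The windows from 250 bases before to 50 bases after the RefSeq start (GRCm38.p6) are shown for 3 of these genes, because serum response factor, which binds the CArG box, and CREB family proteins, which bind TGACGTCA or its TGACG part, are the textbook regulators of immediate early genes. Capitals mark every match to these 3 motifs on either strand, CGTCA being TGACG on the other strand. Each window shown was picked to hold a match to 1 of the motifs, so having a match is no result. The Egr2 window is 1 of 5 in RefSeq, of which 4 held a CArG box. It is chr10:67537619-67537918 on the plus strand, with 1 CArG box, whose first base is 72 bases before the start, and 2 matches to TGACG. The Nr4a3 window is chr4:48045055-48045354 on the plus strand, with 4 matches to TGACG and 0 CArG boxes. The Btg2 window is chr1:134079106-134079405, read on the minus strand, with 1 match to TGACGTCA, which holds TGACG on both strands, and 0 CArG boxes.
Egr2: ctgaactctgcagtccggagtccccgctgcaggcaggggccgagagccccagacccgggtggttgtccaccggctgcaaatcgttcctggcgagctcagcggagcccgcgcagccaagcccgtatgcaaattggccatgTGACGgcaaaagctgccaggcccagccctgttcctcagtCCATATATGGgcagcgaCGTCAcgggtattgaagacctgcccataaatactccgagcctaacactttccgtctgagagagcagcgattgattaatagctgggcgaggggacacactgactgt
Nr4a3: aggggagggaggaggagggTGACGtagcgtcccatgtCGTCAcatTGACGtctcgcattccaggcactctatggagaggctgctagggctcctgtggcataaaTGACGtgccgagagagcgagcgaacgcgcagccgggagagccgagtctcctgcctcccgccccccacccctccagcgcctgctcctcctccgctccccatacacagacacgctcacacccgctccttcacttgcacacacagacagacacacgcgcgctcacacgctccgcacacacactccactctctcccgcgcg
Btg2: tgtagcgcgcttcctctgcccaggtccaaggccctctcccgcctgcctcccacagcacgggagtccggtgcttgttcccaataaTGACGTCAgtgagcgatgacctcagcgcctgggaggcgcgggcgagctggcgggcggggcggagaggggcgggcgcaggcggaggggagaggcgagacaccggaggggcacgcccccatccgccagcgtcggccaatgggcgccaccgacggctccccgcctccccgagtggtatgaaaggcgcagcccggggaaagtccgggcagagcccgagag
The matches were found outside the lower genes too. A CArG box was in a window of 3 of the 79 lower genes with a RefSeq window (3.8%), 5 of 111 higher genes (4.5%) and 1.49% of the 7374 genes measured that had one, and in 1.63% of all windows. TGACG was in a window of 34.2% of the lower genes, 32.4% of the higher genes and 38.7% of the measured genes, and in 20.8% of all windows, and TGACGTCA, which contains it, was in 1.27%, 2.7% and 3.92% of these genes and in 1.79% of all windows.

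**Figure D2:**
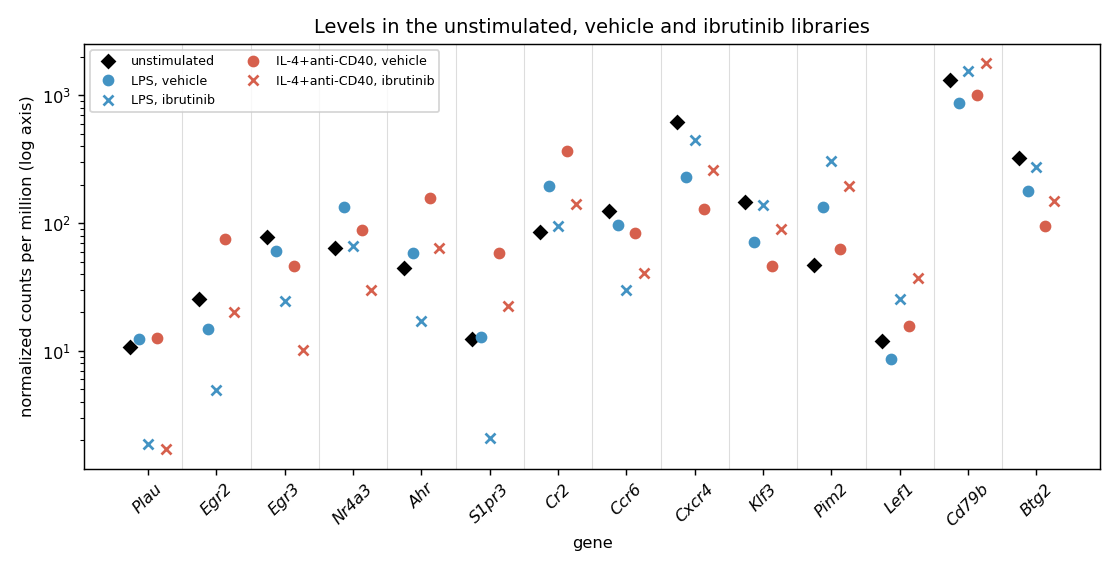
Normalized CPM (log axis) of 14 genes in the unstimulated library (diamond), the vehicle libraries (circles) and the ibrutinib libraries (crosses) of the second experiment, blue under LPS and red under IL-4+anti-CD40. Crosses lie below the circle of the same colour for Plau to Ccr6 and above it for Cxcr4 to Btg2.

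Of 18 measured genes of B cell trafficking, mostly receptors, 4 fell and 9 rose by edgeR, against 13.2% and 12% of all genes. The list also holds Klf2, a transcription factor gene, and Cd55, a complement regulator gene. At 1.5-fold under both stimuli 2 of the 18 were lower and 5 higher, against 1.2% and 1.55% of all genes. S1pr3, a sphingosine-1-phosphate receptor found on marginal zone B cells, was at 12.8 and 2.10 CPM under LPS and at 58.3 and 22.5 CPM under IL-4+anti-CD40, without and with ibrutinib. It was at 12.4 CPM in unstimulated cells, so that its ibrutinib level was below the unstimulated level under LPS and above it under IL-4+anti-CD40. The 2 ratios, -2.55 and -1.37, did not pass the test of their difference (edgeR with the spread of the first experiment, adjusted p = 0.435). Ccr6, the receptor for CCL20, was at 96.9 and 29.8 CPM under LPS and at 84.4 and 40.9 CPM under IL-4+anti-CD40, and at 124 CPM in unstimulated cells. It fell by 1.39 ± 0.15 (SE) on the log2 scale (edgeR, adjusted p = 0.00195).

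The trafficking genes higher at 1.5-fold were lower in both vehicle libraries than in the unstimulated library. Cxcr4, the receptor for CXCL12, was at 621 CPM in unstimulated cells, at 231 and 446 CPM under LPS and at 129 and 261 CPM under IL-4+anti-CD40, without and with ibrutinib. Cd55, a complement regulator, had log2 ratios of 0.80 and 1.21, the cannabinoid receptor gene Cnr2 0.85 and 0.69, and S1pr4 0.70 and 0.94. Cxcr4 and these 3 rose by edgeR, with adjusted p between 0.000553 and 0.00292.

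Among 31 measured genes of the B cell receptor and its proximal signalling, 10 fell and 11 rose by edgeR, against 13.2% and 12% of all genes. At 1.5-fold under both stimuli 4 were lower and 4 higher, against 1.2% and 1.55% of all genes. The medians were 0.11 under LPS and 0.03 under IL-4+anti-CD40. Genes of the receptor and of its activating arm were among those that rose. Cd79b, a signalling chain of the B cell receptor, was at 879 and 1552 CPM under LPS and at 1003 and 1785 CPM under IL-4+anti-CD40, without and with ibrutinib, and at 1327 CPM in unstimulated cells. For this gene the 2 ibrutinib libraries were higher than the 2 vehicle libraries and the unstimulated one. Syk (0.64 and 0.70), the kinase that binds the phosphorylated receptor, and Pik3cd (0.63 and 0.75), the PI3K catalytic subunit of lymphocytes, rose as well, as did Cd79a (0.31 and 0.49) and Bank1 (0.49 and 0.43).

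The members that fell included inhibitory ones. Ptpn6, which encodes the phosphatase SHP-1, was at 297 and 149 CPM under LPS and at 215 and 123 CPM under IL-4+anti-CD40, without and with ibrutinib, and at 201 CPM in unstimulated cells. Cd72, an inhibitory coreceptor that recruits SHP-1, had ratios of -0.62 and -0.97, and Fcgr2b, the inhibitory Fc receptor, -1.06 and -0.46. Cr2, which encodes the complement receptor CD21 and assists the B cell receptor, was at 195 and 95.8 CPM under LPS and at 366 and 142 CPM under IL-4+anti-CD40, and at 84.9 CPM in unstimulated cells. It fell by 1.23 ± 0.08 (SE) on the log2 scale (edgeR, adjusted p = 0.000626). The Src family kinase gene Fyn had ratios of -0.77 and -0.78 and also fell. The response of Cr2 and Ptpn6 to LPS alone was not the same in the first experiment, where LPS lowered both (log2 changes of -1.90 and -1.43), while in the second the LPS and vehicle library was above the unstimulated one.

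Of the 10 kinases listed as having the cysteine that ibrutinib binds, 4 had a mean of at least 100 counts. Btk itself was at 124 and 160 CPM under LPS and at 76.3 and 84.1 CPM under IL-4+anti-CD40, without and with ibrutinib, and at 285 CPM in unstimulated cells. Its ratios of 0.37 and 0.14 were small, and it rose by edgeR (0.24 ± 0.06 SE, adjusted p = 0.0335). The inhibitor acts on the protein, so the mRNA does not check the treatment. Tec, a kinase of the same family, had ratios of 0.22 and 0.66 and rose, the Src family kinase gene Blk had ratios of -0.51 and -0.57 and fell, and Jak3 had ratios of -0.42 and -0.02 (edgeR, adjusted p = 0.122).

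The genes with the largest shared increases were chosen in the same way. Pim2, a survival kinase, was at 135 and 305 CPM under LPS and at 62.3 and 197 CPM under IL-4+anti-CD40, without and with ibrutinib, and at 47.4 CPM in unstimulated cells. It rose by 1.38 ± 0.11 (SE) on the log2 scale (edgeR, adjusted p = 0.001). With LPS, Pim2 was at 278 to 299.9 CPM in the 4 vehicle libraries of the first experiment, so that the ibrutinib library of the second experiment lay at the level that vehicle had in the first. With IL-4+anti-CD40 the first experiment gave 57.9 to 72.0 CPM, close to the vehicle library of the second. Lef1, a transcription factor of the Wnt pathway and of early lymphocytes, was at 8.66 and 25.5 CPM under LPS and at 15.8 and 37.0 CPM under IL-4+anti-CD40. Gbp2, a guanylate-binding protein induced by interferon, was at 44.3 and 102 CPM under LPS and at 32.1 and 81.5 CPM under IL-4+anti-CD40, and at 29.3 CPM in unstimulated cells. Tnfrsf26, a TNF receptor family member, was at 20.1 and 45.3 CPM under LPS and at 19.6 and 57.2 CPM under IL-4+anti-CD40, and at 53.0 CPM in unstimulated cells. Arl5c, Spata13, Msrb3 and Tmem26 had ratios between 1.06 and 1.29 under both stimuli. Hepacam2 (1.10 and 1.31) and Pgpep1l (1.45 and 2.15) rested on no more than 225 and 91 counts in any of the 4 libraries.

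Gh and Scn4a, the growth hormone gene and a muscle sodium channel gene, were also among the 12 largest shared increases. They lie on either side of Cd79b on the same strand (mm10), Gh at chr11:106300271-106301865, Cd79b at chr11:106311341-106314762 and Scn4a at chr11:106318592-106353288. Gh was at 6.31 and 17.6 CPM under LPS and at 9.92 and 25.6 CPM under IL-4+anti-CD40, without and with ibrutinib. Scn4a was at 42.7 and 91.9 CPM under LPS and at 138 and 296 CPM under IL-4+anti-CD40. The log2 ratios were 1.47 and 1.36 for Gh, 0.82 and 0.83 for Cd79b and 1.10 and 1.10 for Scn4a. The noncoding gene Gm15675, at chr1:130429781-130437191 and thus next to Cd55 (chr1:130439027-130462744) on the same strand, had ratios of 0.69 and 1.24, near the 0.80 and 1.21 of Cd55. Whether reads of 1 transcription unit were counted for its neighbour was not tested.

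Cytokine genes were among those called in each direction. Il12a, a subunit of IL-12 and IL-35, rose from 15.0 to 29.0 CPM under LPS and from 7.76 to 19.2 CPM under IL-4+anti-CD40. Il1b rose from 54.0 to 105 CPM and from 13.1 to 22.1 CPM. Il10, an anti-inflammatory cytokine, fell from 16.8 to 11.1 CPM and from 10.9 to 5.70 CPM, on 144 to 301 counts. The chemokine gene Ccl3 fell from 27.9 to 19.4 CPM and from 11.2 to 6.49 CPM. Of the 15 measured chemokine and cytokine genes, 4 fell and 5 rose by edgeR, against 13.2% and 12% of all genes. Of 21 surface molecules of activation and costimulation, 4 fell and 4 rose, near the share over all genes. Slamf1 (-0.91 and -0.95) was the 1 member past 1.5-fold under both stimuli, where 1.2% of all genes were lower and 1.55% higher. H2-Eb1, an MHC class II chain, was at -0.38 and -0.46. Cd69, Cd86 and Cd44 had ratios between -0.06 and 0.23.

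Of 27 measured NF-kB targets, 8 fell and 4 rose by edgeR, against 13.2% and 12% of all genes, and the medians were -0.06 and -0.09. At 1.5-fold under both stimuli 0 were lower and 0 higher, where 1.2% and 1.55% of all genes were. Nfkbie, which encodes an inhibitor of NF-kB, was at 371 and 289 CPM under LPS and at 296 and 226 CPM under IL-4+anti-CD40, without and with ibrutinib, and fell. Gadd45b, a stress sensor gene, had ratios of -0.26 and -0.51 and fell, and Tnfaip2 had ratios of 0.86 and 0.37 and rose. Nfkbia had ratios of 0.02 and -0.01, and Cd40 of -0.02 and -0.11. Among 12 measured genes of MAP kinase and calcium feedback 3 fell and 1 rose. Nfatc1, the calcium-regulated transcription factor, was at 256 and 162 CPM under LPS and at 201 and 114 CPM under IL-4+anti-CD40, and fell by 0.76 ± 0.05 (SE) on the log2 scale (edgeR, adjusted p = 0.000757). Dusp6 had ratios of 0.57 and 0.27 and an adjusted p of 0.051.

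Of 16 measured IL-4, STAT6 and SOCS genes 5 fell and 4 rose by edgeR, against 13.2% and 12% of all genes. Cish, a feedback inhibitor of cytokine receptors, was at 10.7 and 6.17 CPM under LPS and at 121 and 78.3 CPM under IL-4+anti-CD40, without and with ibrutinib, and fell. Socs1 had ratios of -0.50 and -0.59 and fell as well, while Fcer2a, which encodes CD23, had ratios of 0.72 and 0.56 and rose. Bcl6, a transcriptional repressor needed for germinal centres, was at 115 and 158 CPM under LPS and at 33.5 and 63.3 CPM under IL-4+anti-CD40, and rose. Among 20 B cell and plasma cell transcription factors 4 fell, near the share over all genes, and 7 rose. Prdm1, which encodes the plasma cell factor Blimp-1, rose from 14.9 to 32.1 CPM under LPS and from 22.6 to 41.4 CPM under IL-4+anti-CD40, against 22.1 CPM in unstimulated cells. The plasma cell marker gene Sdc1 was at 7.88 and 6.95 CPM under LPS and at 3.10 and 3.92 CPM under IL-4+anti-CD40. Irf8 (-0.53 and -0.66) fell, and Tcf3 (0.54 and 0.57), which encodes E2A, rose.

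Growth genes were shifted by small amounts, mostly downwards. Over all genes, 13.2% fell and 12% rose by edgeR, and 1.2% were lower and 1.55% higher at 1.5-fold under both stimuli. Of 66 ribosome biogenesis genes 58 fell and 0 rose by edgeR, with 0 past 1.5-fold under both stimuli. At any size, 65 of them were below vehicle under both stimuli, against 33.6% of all genes. Rrp1b and Bysl moved most, with ratios of -0.47 and -0.59 and of -0.53 and -0.47. Of 23 cholesterol synthesis genes 16 fell and 0 rose, with medians of -0.36 and -0.30, and Lss, the lanosterol synthase gene, was at 61.6 and 35.3 CPM under LPS and at 103 and 73.9 CPM under IL-4+anti-CD40, without and with ibrutinib. Of 18 glycolysis and lactate export genes 12 fell and 0 rose, and Ldha and Slc16a1, which encode lactate dehydrogenase A and a lactate transporter, were lower by 1.5-fold under both stimuli. Ldha was at 613 and 349 CPM under LPS and at 785 and 434 CPM under IL-4+anti-CD40, against 350 CPM in unstimulated cells. With LPS its ibrutinib level was thus the unstimulated one, and under IL-4+anti-CD40 it stayed above. Of 22 genes of amino acid supply 11 fell and 0 rose, with Slc1a5, a glutamine transporter gene, at -0.46 and -0.53. Among 25 pyrimidine enzymes 10 fell and 2 rose, against 13.2% and 12% of all genes. The dCMP deaminase gene Dctd (-0.66 and -0.65) was the 1 member lower at 1.5-fold under both stimuli, and the uridine kinase gene Uck2 had ratios of -0.50 and -0.67. Myc was at 728 and 581 CPM under LPS and at 535 and 356 CPM under IL-4+anti-CD40, far above the 93.2 CPM of unstimulated cells, and fell by 0.48 ± 0.07 (SE) on the log2 scale (edgeR, adjusted p = 0.00392). The Myc antagonists Mxi1 (0.80 and 0.61) and Mxd4 (0.44 and 0.53) rose. The depth and the mitochondrial share differed between the ibrutinib and vehicle libraries in the same direction under both stimuli, and their part in shifts of this size was not tested.

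Among quiescence genes of the KLF and FOXO group more rose than fell. Of 25 measured members 3 fell and 10 rose by edgeR, against 13.2% and 12% of all genes. The medians were 0.24 under LPS and 0.08 under IL-4+anti-CD40, against 0.04 and 0.01 over all genes. Above vehicle under both stimuli were 14 members, against 42.4% of all genes. Klf3, a repressor linked to the resting state of B cells, was at 145 CPM in unstimulated cells, at 70.7 and 139 CPM under LPS and at 46.2 and 89.9 CPM under IL-4+anti-CD40, without and with ibrutinib. Cdkn1b, which encodes the cell cycle inhibitor p27, was at 153 CPM in unstimulated cells, at 50.8 and 90.8 CPM under LPS and at 37.9 and 60.4 CPM under IL-4+anti-CD40. Sesn1 (0.51 and 0.87) and Foxp1 (0.37 and 0.60) rose, while Irs2 (-0.46 and -0.86) fell. In the G1 cyclin and replication licensing list, Cdk4 (-0.47 and -0.40) and Cdk6 (-0.38 and -0.60) fell, and the 6 measured Mcm2 to Mcm7 genes had ratios between -0.15 and 0.20. The proapoptotic gene Bcl2l11, which encodes Bim, rose from 463 to 710 CPM under LPS and from 195 to 304 CPM under IL-4+anti-CD40. Of the 16 measured BCL2 family members 0 fell and Bcl2l11 alone rose by edgeR, against 13.2% and 12% of all genes.

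Of 23 interferon-stimulated genes 1 fell and 8 rose by edgeR, against 13.2% and 12% of all genes. Gbp2 alone in this list was past 1.5-fold under both stimuli, where 1.55% of all genes were higher. The next largest in the list, Ifit3, was at 0.43 and 0.49. Genes outside the list were not counted here, and Gbp3 (0.68 and 1.24), for example, was also in the higher set. Of 18 heat shock chaperones 7 fell and 0 rose, with the mitochondrial chaperonin gene Hspd1 at -0.44 and -0.50. Of 20 unfolded protein response genes 4 fell, near the share over all genes, and 1 rose. Hspa5, which encodes BiP, was at -0.31 and -0.32. Ero1lb, an oxidase of disulfide bond formation, was the 1 that rose (0.37 and 0.70). Of 11 mitochondrially encoded genes 0 fell and 7 rose, with medians of 0.26 and 0.57, in libraries whose mitochondrial share was higher as a whole.

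**Figure D3:**
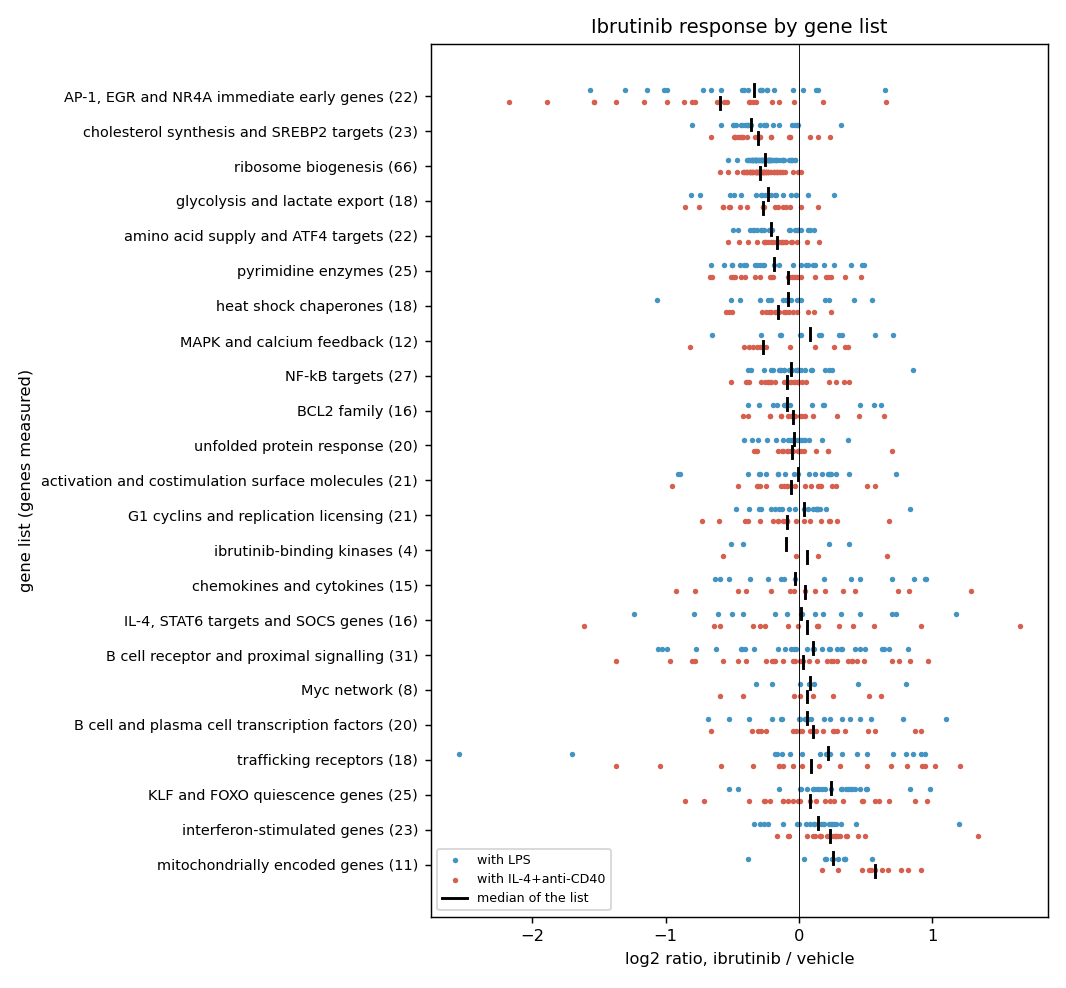
Log2 ratio of ibrutinib over vehicle (x axis) for each member of 23 gene lists, under LPS (blue) and under IL-4+anti-CD40 (red), and the median of each list (black bar). The immediate early genes have the lowest median under IL-4+anti-CD40 (-0.59), the single point farthest to the left is S1pr3 (-2.55), ribosome biogenesis forms a narrow cluster with medians of -0.26 and -0.29, and the mitochondrially encoded genes stand at the bottom with medians of 0.26 and 0.57.

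The response of the same genes to the stimuli alone was taken from the first experiment, with 4 vehicle libraries against 4 unstimulated libraries and none of the libraries that chose the genes (edgeR, adjusted p under 0.05). Of the 116 genes lower with ibrutinib, LPS raised 55 (47.4%) and lowered 20 (17.2%), against 35.3% and 33.5% of all genes. IL-4+anti-CD40 raised 61 of the 115 tested (53%) and lowered 17 (14.8%), against 36.2% and 32%. The counts ran the other way for the 150 genes higher with ibrutinib, of which 149 were tested. LPS lowered 95 (63.8%) and raised 18 (12.1%), and IL-4+anti-CD40 lowered 116 (77.9%) and raised 13 (8.72%). The median log2 change of the lower genes was 0.62 under LPS and 0.86 under IL-4+anti-CD40, that of the higher genes was -0.77 and -1.29, and those of all genes were 0.02 and 0.03. The 2 comparisons share the unstimulated libraries. Of the 116 and 150 genes, 13 and 9 passed the count minimum only through the unstimulated or DSF libraries. Leaving these out was chosen after seeing the data. LPS then raised 51.5% and lowered 16.5% of 103 lower genes, against 35.7% and 33.1% of all genes. It lowered 64.5% and raised 12.8% of 141 higher genes. With IL-4+anti-CD40, 55.3% of the lower genes were raised and 16.5% lowered, against 36.7% and 31.7%. Of the higher genes, 78.7% were lowered and 9.22% raised. Named genes went both ways. Cxcr4 (-2.39 and -1.85), Cdkn1b (-1.89 and -2.08) and Klf3 (-1.39 and -1.13) were lowered by both stimuli and rose with ibrutinib, and Lrrc32 (3.16 and 4.00) and Zc3h12c (1.29 and 2.06) were raised by both and fell. Egr3 (-0.88 and -1.14) and Blk (-0.99 and -0.86), on the other hand, were lowered by both stimuli and fell with ibrutinib.

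**Figure D4:**
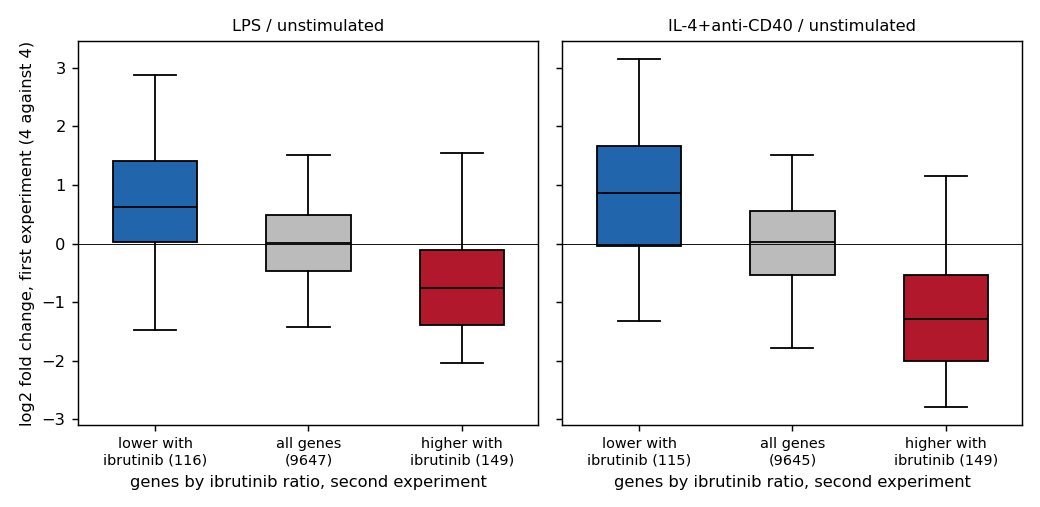
Log2 fold change of each stimulus over unstimulated cells in the first experiment (y axis, 4 libraries against 4) for genes lower with ibrutinib (blue), all measured genes (grey) and genes higher with ibrutinib (red) in the second experiment. Boxes show the quartiles and the median and whiskers the 5th and 95th percentile, with medians of 0.62 and 0.86 for the lower genes and -0.77 and -1.29 for the higher genes.

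DSF, the other inhibitor of the study, was compared with vehicle in the first experiment, in other libraries than those that chose the genes. The count minimum, however, was taken over libraries that included DSF, and 13 of the 116 and 9 of the 150 genes passed it only through the unstimulated or DSF libraries. Of the 116 genes lower with ibrutinib, DSF lowered 41 (35.3%) and raised 61 (52.6%) under LPS, against 44.3% and 36.9% of all genes, and it lowered 43 (37.1%) and raised 53 (45.7%) under IL-4+anti-CD40, against 39.2% and 33.1%. Without the 13 genes, an alternative chosen after seeing the data, the counts were 41 lowered (39.8%) and 48 raised (46.6%) of 103 under LPS, against 45.1% and 36% of all genes, and 43 lowered (41.7%) and 41 raised (39.8%) under IL-4+anti-CD40, against 40% and 32%. More of these genes were thus raised than lowered under LPS, and under IL-4+anti-CD40 the order turned with this choice. Of the genes higher with ibrutinib, DSF lowered 56 (37.6%) and raised 65 (43.6%) of 149 under LPS, and lowered 24 (16%) and raised 89 (59.3%) of 150 under IL-4+anti-CD40. Without the 9 genes, 55 (39.3%) and 60 (42.9%) of 140 were lowered and raised under LPS, and 24 (17%) and 83 (58.9%) of 141 under IL-4+anti-CD40. Ccr6 was lowered by DSF as well (-3.53 under LPS and -2.69 under IL-4+anti-CD40), and Cxcr4, higher with ibrutinib, was raised by DSF (2.65 and 2.18). Plau had DSF changes of 3.17 and 1.6 and Blk of 1.29 and 1.32, against their decreases with ibrutinib. The DSF calls given here came from another experiment than the ibrutinib ratios. The second experiment also held 1 DSF library for each stimulus, which these calls did not use. The difference between the inhibitors was not tested.

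The ibrutinib effect itself differed between the stimuli for few genes. With the spread of the first experiment, 4 of 9659 genes (0.0414%) passed the test of the difference (edgeR, adjusted p under 0.05), namely Egr3, Lrmp, Samsn1 and the pseudogene Rps2-ps10. With the spread taken from only the 8 vehicle libraries of the stimuli, 0 genes passed (smallest adjusted p 0.577), so these calls depend on which libraries give the spread. Samsn1, an adaptor that dampens B cell activation, was at 71.5 and 56.2 CPM under LPS and at 209 and 70.1 CPM under IL-4+anti-CD40, without and with ibrutinib. Its IL-4+anti-CD40 and vehicle level was above the 38.7 CPM of unstimulated cells, and with ibrutinib it was at about the level that LPS gave. Lrmp, a membrane protein gene of lymphoid cells, was at 159 and 103 CPM under LPS and at 191 and 63.4 CPM under IL-4+anti-CD40. For these genes and Egr3 the decrease was larger under IL-4+anti-CD40. By size alone, Cd93 was among the 5 genes whose ratio under LPS exceeded that under the other stimulus most, with ratios of 1.14 and -0.38 (adjusted p of the difference = 0.435), and C130026I21Rik among the 5 with the largest difference in the other direction, with ratios of -3.01 and -0.18 (adjusted p = 0.435). The 6 genes past 1.5-fold in opposite directions were the pseudogenes Gm10241, Gm12191, Gm19178 and Rpl30-ps10 and the genes Srp54a and Sumo2. None of the 6 passed the test of the difference, and Sumo2 varied from 14.5 to 90.7 CPM over the 4 unstimulated libraries of the first experiment.

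The 2 sets were close to the other genes in the properties the choice did not use. Their median gene length was 4064 bases for the lower and 4219 for the higher genes, against 4451 for all, and 94% and 94.7% were protein-coding, against 93.4%. Of the 116 and 150 genes, 13 and 9 had a mean under 100 counts in the 4 libraries themselves and passed the minimum through the unstimulated or DSF libraries. Efr3b, for example, was at or below 0.394 CPM in the 4 libraries, and it was the 1 higher gene that edgeR did not call. Next to the limit of 0.585, Chst11 was just inside and Atf3 just outside the lower set, and Snx8 and Rnf103 stood likewise at the edge of the higher set.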

How the data were processed

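RNA from splenic B cells was poly(A)-selected and sequenced. The authors used Fastp for trimming, HISAT2 2.0.5 for mapping (mm10) and featureCounts 1.5.0-p3 for counting per gene. They deposited unnormalized counts, and FPKM computed from those counts and gene lengths. The annotation release and the strand setting were not given in the sources used here. Reads of overlapping genes, antisense partners and near-identical copies may therefore be shared.

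Counts were normalized by TMM within each experiment. Ratios carry a prior count of 2, so those of low genes are understated. The tests were edgeR 4.0.16 quasi-likelihood tests (R 4.3.3) with Benjamini-Hochberg adjustment, checked on simulated counts, with DESeq2 1.42.0 and ratios of FPKM plus 0.1 among the alternatives. Filters were a mean of at least 100 counts, and filterByExpr in the first experiment. Total counts were 17509704 to 24619776 in the 4 libraries compared. The study describes the 4 replicates of the first experiment as biologically independent. Whether each came from another mouse was not given in the sources used here, and p-values measure the spread between these libraries.

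The genes to name were the 12 per direction with the largest smaller-of-2 ratio, up to 4 members per list, the kinases, and the 5 genes each way that differed most between the stimuli. Other genes named (such as Btg2, Nr4a1, Fos, Jun, Syk, Cd72, Fcgr2b, Cd69, Fcer2a and Gm15675) were chosen after their values were seen, and the genes and lists were chosen with earlier results of these data known. Some of the genes that this rule names are not reported here.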

Additional observations from a re-analysis of the deposited data

Results flagged for a closer look

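The ibrutinib effect under LPS minus that under IL-4+anti-CD40 differed from 0 by edgeR with the spread of the first experiment for 4 genes. The difference on the log2 scale was 0.848 for Egr3 (SE 0.13, adjusted p = 0.0251), 0.933 for Lrmp (SE 0.15, adjusted p = 0.0251), 1.20 for Samsn1 (SE 0.16, adjusted p = 0.0077) and -1.80 for the pseudogene Rps2-ps10 (SE 0.29, adjusted p = 0.0251). With only the 8 vehicle libraries of the first experiment as the source of the spread, 0 genes passed by edgeR (158 with a negative and 100 with a positive difference had an unadjusted p under 0.05). With all 16 stimulated libraries as the source, DESeq2 called 15.

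The highest of the 4 LPS and vehicle libraries of the first experiment stood apart for Pim2, at 299.9 CPM against a median of 278 CPM. Chance flags about 1 in 20 such groups.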

How the results depend on the processing

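The order of the DSF calls among the lower genes under IL-4+anti-CD40 turned, as given above, and none of the other results reversed. Some calls were lost, among them every call of the average effect in the additive fit over 7 libraries. A lower count minimum raised the counts at 1.5-fold. With a mean of at least 10 counts, 295 genes were lower and 409 higher under both stimuli, 1006 and 1272 under LPS, and 803 and 1085 under IL-4+anti-CD40. With any count, they were 807 and 953, 3248 and 3485, and 3341 and 3123. With a mean of at least 50 counts, 375 and 519 genes passed under LPS. At 2-fold the counts were 23 and 16 under both, 55 and 37 under LPS, and 51 and 58 under IL-4+anti-CD40. Scaling moved the median of all genes to between -0.01 and 0.04 under LPS, and DESeq2 size factors retained 116 of the 116 lower and 123 of the 150 higher genes, total counts 115 and 126, and FPKM ratios 114 and 110. A mean of at least 100 counts over the 4 libraries themselves, chosen after seeing the data, gave 107 lower and 148 higher.

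For the average effect, DESeq2 with the stimulus as a block called 595 genes lower and 547 higher, and the additive fit over 7 libraries 0 and 0 (smallest adjusted p 0.0673). With the spread of the 8 vehicle libraries, 105 genes were lower and 84 higher under both stimuli and 0 differed between the stimuli (smallest adjusted p 0.577), while DESeq2 with all 16 stimulated libraries called 15 of these differences. The cause was not tested. In the first experiment the main fits did not pair libraries by replicate number. Correlations between same-numbered libraries were -0.083 to 0.378. The highest, 0.378 and 0.368, were those of replicates 1 and 4 in the DSF comparison under IL-4+anti-CD40, and the others were at most 0.138. A replicate block left every count of calls within 1.5 times, for example 54 in place of 55 lower genes raised by LPS, and leaving out each library in turn gave 47 to 59 for that count. The ibrutinib conditions had 1 library each, so no spread between replicates stands behind their ratios.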
